A study of Mus musculus with 60 samples.

Results

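The genes of the mitochondrial genome were followed through cloned and in vivo mouse embryos. Members were taken as every gene of the deposited expression table whose Ensembl identifier belongs to a gene with a symbol that starts with mt-, and 16 of the 27238 genes of the table met this rule. All 16 lie on the mitochondrial chromosome (chrM) in the annotation used here, GENCODE M21 of the GRCm38 assembly, which holds 37 such genes. The 16 are the 2 ribosomal RNA genes, all 13 protein-coding genes and 1 transfer RNA gene, mt-Tp, and the other 21 transfer RNA genes were not listed. No measured value entered the choice.

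The study sequenced RNA of single embryos from 3 origins. In vivo embryos came from superovulated C57BL/6 females mated with DBA2 males. NTC embryos were made by placing a cumulus cell (CC) nucleus of a BDF1 female, and NTM embryos by placing the nucleus of a mouse embryonic fibroblast (MEF) of a BDF1 fetus, into an enucleated BDF1 oocyte. BDF1 is the first-generation cross of C57BL/6 and DBA2, and the labels give this strain for every library. The BDF1 females that gave oocytes and CCs were superovulated too. Each origin was sampled at 6 stages, the 1-cell, the 2-cell, the 4-cell and the 8-cell embryo, the morula and the blastula, and both donor cell types were sequenced alone, which gave 20 groups of 3 libraries and 60 libraries in all. The MEFs had been passaged and serum starved before transfer. All NT embryos, and no in vivo embryos, went through activation with SrCl2 and cytochalasin B, Scriptaid treatment and culture. The egg also came from a C57BL/6 female for in vivo embryos and from a BDF1 female for NT embryos. The donor nucleus, the strain of the egg donor and the handling cannot be told apart in a comparison of NT with in vivo embryos. The p-values below rest on 3 libraries a group.

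Mitochondrial DNA is a small circular genome present in many copies per cell and inherited through the oocyte. Both of its strands are transcribed as long RNAs that start in the control region, and the transfer RNAs lying between the other genes are cut out to release the ribosomal and messenger RNAs, which receive short poly(A) tails. Its proteins are core subunits of respiratory complexes I, III, IV and V, while every protein that copies, transcribes or processes it is encoded in the nucleus. An oocyte holds a very large stock of mitochondria, and early cleavage proceeds without much replication of their DNA.

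The sequences of the members on which the results turn are shown with their GRCm38 positions, 5′ to 3′ along the transcript. The first 120 bases of the ribosomal RNA genes are given because these genes together carried most of the mitochondrial reads in morulae. Most of those reads were on mt-Rnr2. mt-Rnr1, the 12S RNA of the small mitochondrial ribosomal subunit, is at chrM:70-189 on the plus strand, and mt-Rnr2, the 16S RNA of the large subunit, at chrM:1094-1213 on the plus strand.
mt-Rnr1: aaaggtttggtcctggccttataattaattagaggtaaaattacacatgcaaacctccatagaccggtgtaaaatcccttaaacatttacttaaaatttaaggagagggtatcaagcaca
mt-Rnr2: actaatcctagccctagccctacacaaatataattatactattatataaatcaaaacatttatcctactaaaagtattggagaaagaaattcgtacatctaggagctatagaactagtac

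The first 90 bases of mt-Nd2, a complex I subunit, are at chrM:3914-4003 on the plus strand, with the start codon in capitals. The whole of mt-Atp8, a small subunit of ATP synthase, is at chrM:7766-7969 on the plus strand, and capitals mark the 43 bases it shares with mt-Atp6, the next gene. The last 80 bases of mt-Nd6 are at chrM:13552-13631 on the minus strand, and capitals mark the 14 bases that lie opposite the end of mt-Nd5. mt-Nd6 is the one protein-coding gene on the minus strand, and whether the libraries kept strand is not given in the sources used here, so its reads and those of RNA from the opposite strand cannot be told apart. mt-Tp, the transfer RNA for proline, is the last gene of the annotation, at chrM:15356-15422 on the minus strand.
mt-Nd2: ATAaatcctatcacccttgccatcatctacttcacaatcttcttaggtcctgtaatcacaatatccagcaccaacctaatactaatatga
mt-Atp8: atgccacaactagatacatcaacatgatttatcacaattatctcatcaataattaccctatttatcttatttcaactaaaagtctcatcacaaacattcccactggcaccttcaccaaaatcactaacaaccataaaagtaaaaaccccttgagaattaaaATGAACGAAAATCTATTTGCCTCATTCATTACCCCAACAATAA
mt-Nd6: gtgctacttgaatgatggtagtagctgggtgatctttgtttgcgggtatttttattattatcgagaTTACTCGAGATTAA
mt-Tp: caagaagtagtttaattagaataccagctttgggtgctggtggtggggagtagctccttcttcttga

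Several members have near-identical copies in the nuclear genome, and the bases that tell them apart were few. mt-Co2, a complex IV subunit, matched the annotated copy Gm28661 (chr1:24615476-24615565, minus strand) over the first 90 bases (chrM:7013-7102) without a difference. mt-Nd3 (chrM:9459-9548) differed from Gm28438 (chr1:24613030-24613119, minus strand) at T3C, in capitals, counted from the first base of the gene with the mitochondrial base first. mt-Co1, the catalytic subunit of complex IV, is shown from base 1174 to base 1293 (chrM:6501-6620) beside Gm13340 (chr2:22588355-22588474, minus strand), with T1179C, G1180A, C1209T, A1251G, A1260G and G1293A in capitals.
mt-Co2: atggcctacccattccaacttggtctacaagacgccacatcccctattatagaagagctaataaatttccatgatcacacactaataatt
Gm28661: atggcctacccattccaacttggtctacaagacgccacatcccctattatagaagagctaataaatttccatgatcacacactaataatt
mt-Nd3: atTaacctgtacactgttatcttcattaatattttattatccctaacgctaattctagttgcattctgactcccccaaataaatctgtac
Gm28438: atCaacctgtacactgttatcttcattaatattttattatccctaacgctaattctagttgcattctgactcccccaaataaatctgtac
mt-Co1: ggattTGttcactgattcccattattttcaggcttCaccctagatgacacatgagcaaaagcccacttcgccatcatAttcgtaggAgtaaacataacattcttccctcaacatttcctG
Gm13340: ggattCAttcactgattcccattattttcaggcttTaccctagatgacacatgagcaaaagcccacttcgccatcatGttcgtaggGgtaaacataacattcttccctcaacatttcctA

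These copies bear on the level of each gene. Of all stretches of 150 bases in mt-Co3, 99.8% were identical to a stretch of another annotated transcript, against 99.4% in mt-Co2, 99.4% in mt-Atp6, 98.0% in mt-Nd4l, 97.0% in mt-Nd3, 59.2% in mt-Nd4 and 23.6% in mt-Co1. The other members had none. With up to 2 mismatches allowed, the percent was 45.0% in mt-Co1 and 3.71% in mt-Nd2. The 5 genes copied nearly whole had low levels in the table. The mean RPKM of a group (reads scaled to the length of the gene and to the depth of the library) lay between 1.36 and 145 for mt-Co2, the neighbour of mt-Co1, whose group means lay between 4416 and 70215. It lay between 6.46 and 87.4 for mt-Co3, 17.6 and 244 for mt-Atp6, 0.42 and 20.9 for mt-Nd3, and 0 and 4.27 for mt-Nd4l. How the authors treated reads that match more than 1 place is not given in the sources used here. The part of the copies in these levels was not tested, so the levels of these 5 genes are uncertain. Those of mt-Nd4, mt-Co1 and mt-Nd2 are uncertain as far as they share sequence with copies. mt-Atp8 was also low, with group means of 1.28 to 196, and had no identical stretch in another annotated transcript. Sequence outside annotated transcripts was not searched. The annotated copies of its neighbours mt-Co2 (chr1:24614885-24615565) and mt-Atp6 (chr1:24613974-24614651) flank bases left out of the search, so its level is uncertain too. At 204 bases it is the shortest protein-coding member, and 43 of its bases lie within mt-Atp6.

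**Figure D1:**
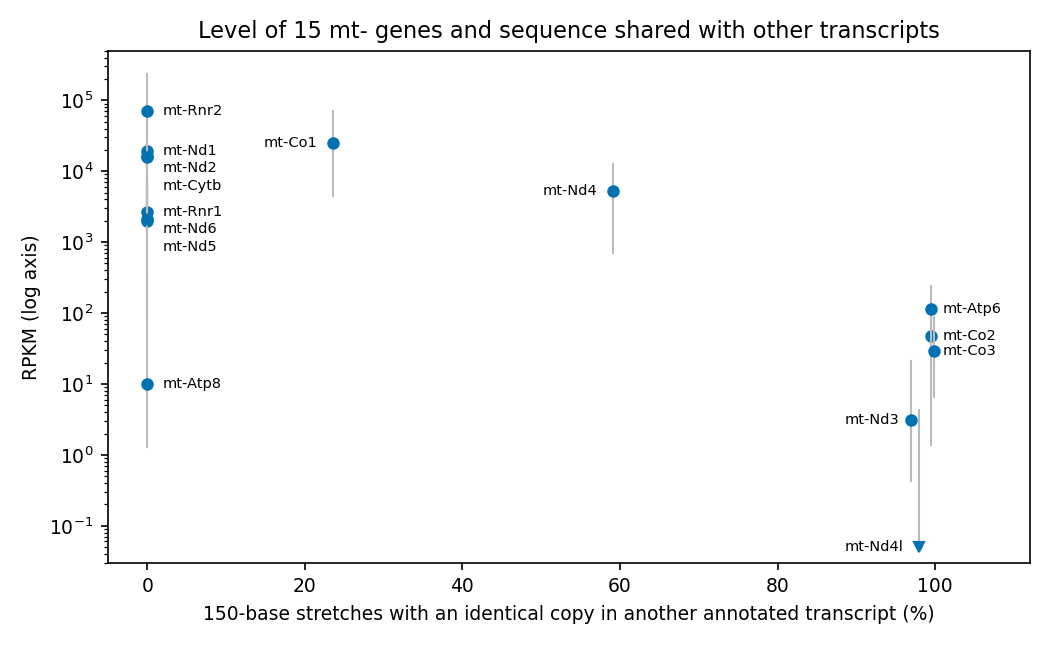
For 15 mt- genes (mt-Tp is shorter than a stretch), the percent of its 150-base stretches that are identical to another annotated transcript (horizontal axis) against its RPKM on a log axis, with a point at the median of the 20 group means a line from the lowest to the highest, and a triangle at the foot for mt-Nd4l, whose median is 0. The 5 genes with 97.0% or more shared stretches lie lowest together with mt-Atp8, while mt-Rnr2 with no shared stretch reaches a group mean of 233515.

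The libraries held between 5294167 and 47830132 reads on genes, recovered from the steps of the RPKM values, with a median of 15451428. The deepest embryo library had 26281508 and the shallowest donor cell library 31558140. Mitochondrial genes took 431213 to 12231305 of these reads. CCs carried 7 of 10 cumulus markers at a mean RPKM of at least 1 (Has2 and Cyp19a1 were at 0), but the cumulus list summed to 336 to 739 RPKM in CCs and 516 to 1202 in MEFs, so it did not tell CCs from MEFs. MEFs carried 8 of 8 fibroblast markers, with a sum of 5191 to 7807 RPKM against at most 3.72 in CCs, and neither list summed to more than 11.1 in any embryo library. The 3 in vivo 4-cell libraries stood apart from all other libraries in the makeup of their mitochondrial RNA, as described next, and the change from the 2-cell to the 8-cell stage is also given without any 4-cell library.

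As a group mean, the share of reads on mitochondrial genes was lower in donor cells and up to the 2-cell stage than in later NT embryos. The stage from which it was high differed between in vivo and NT embryos. It is a share, so more mitochondrial RNA and less of other RNA cannot be told apart in it, and it is given as a description without a test. Single libraries of low and high groups overlapped, with up to 22.9% in NTM 2-cell embryos and as little as 20.4% in NTM blastulae. In CCs the 3 libraries had 3.21%, 2.71% and 3.26% and in MEFs 3.24%, 2.39% and 2.19%. In vivo 1-cell embryos had 13.4%, 4.71% and 6.26%, NTC 1-cell embryos 6.78%, 4.78% and 4.92%, and NTM 1-cell embryos 4.19%, 2.92% and 3.22%. All NTM values at this stage were below all values of both other origins.

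At the 2-cell stage the 3 origins overlapped, at 7.32% to 12.7% in vivo, 8.77% to 19.0% in NTC and 9.86% to 22.9% in NTM embryos. At the 4-cell stage the mean was 7.14% ± 1.61 (SD, n = 3) in vivo, 33.1% ± 1.58 for NTC, and 35.3% ± 5.41 for NTM embryos. In vivo embryos reached this level at the 8-cell stage, with 32.1%, 35.7% and 45.0%, where NTC embryos had 32.4%, 39.0% and 41.3% and NTM embryos 37.8%, 38.3% and 46.2%. In vivo embryos overlapped with NTC and with NTM embryos at this stage and at both later ones. In morulae the overlap of in vivo with NTM embryos rested on the first in vivo library.

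The highest share of any library was found in a morula. In vivo morulae had 64.2%, 30.7% and 29.6%, with the first library far above the other two, NTC morulae 28.1%, 45.0% and 34.9%, and NTM morulae 45.5%, 50.3% and 57.0%. In blastulae the share was 34.9%, 20.5% and 21.2% in vivo, 31.2%, 28.7% and 39.7% with CC nuclei and 24.5%, 20.4% and 50.4% in NTM embryos, and the 3 origins overlapped.

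**Figure D2:**
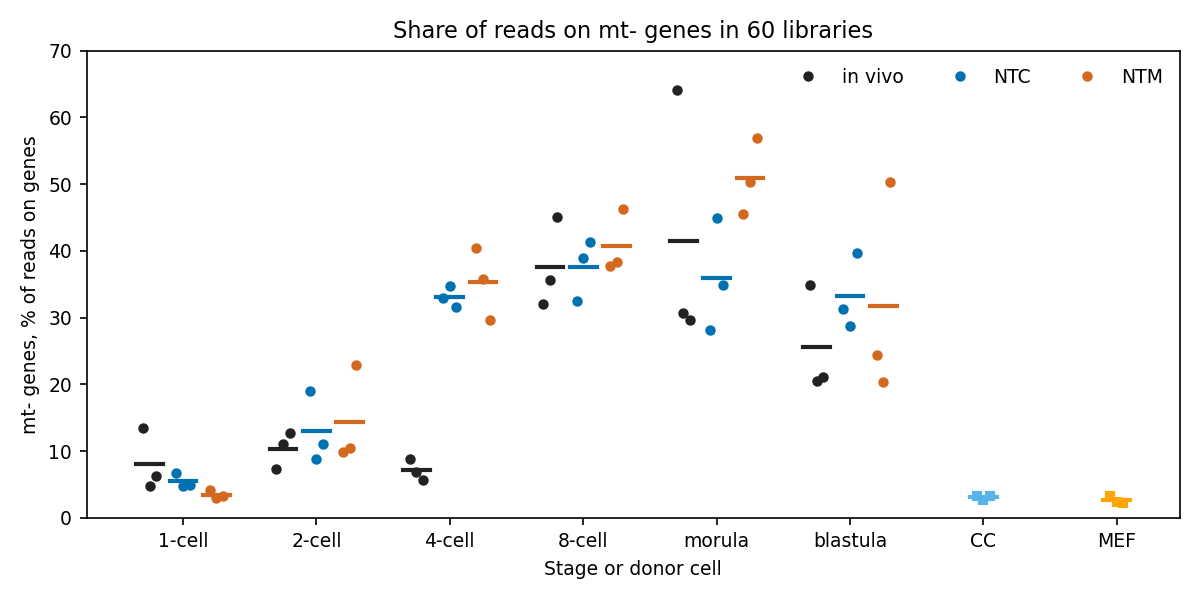
Percent of all reads on genes that fell on the 16 mitochondrial genes (vertical axis) in each of the 60 libraries by stage, with donor cells beside the in vivo, NTC and NTM embryos; points are libraries and short lines the mean of 3. In vivo embryos stay at or below 13.4% up to the 4-cell stage, while all NTC and NTM 4-cell libraries lie at 29.6% or above.

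The makeup of the mitochondrial RNA also changed with stage. mt-Rnr2 took 20.8% of mitochondrial reads in NTC 1-cell and 20.8% in NTM 1-cell embryos (both are group means), 43.3% and 44.4% at the 4-cell stage, 60.8% and 68.7% at the 8-cell stage and 76.1% and 72.1% in morulae. In NTC and NTM blastulae it was back at 30.1% and 39.4%. The share on mt-Co1 moved the other way, with 35.2% and 30.5% of mitochondrial reads at the 1-cell stage, 6.45% and 8.46% in morulae and 33.1% and 31.3% in blastulae. Its mean level did not fall with its share from the 1-cell stage to the morula. It was 12434 and then 14690 RPKM in NTC embryos, and 6824 and then 27409 RPKM in NTM embryos. In vivo embryos had 61.5% mt-Rnr2 at the 8-cell stage, 56.1% in morulae and 44.3% in blastulae. Donor cells had 28.0% (CC) and 31.7% (MEF). The libraries were made from reverse-transcribed and tailed cDNA with many cycles of PCR and no molecular identifiers, so a share of reads is not a share of molecules.

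In vivo 4-cell embryos had a makeup of their own. The group nearest to them, in vivo 1-cell embryos, placed 33.0% of its mitochondrial reads on other genes than they did, while for each of the other 19 groups the nearest group differed by 3.73% to 10.8%. In vivo 4-cell embryos had 27.6% of mitochondrial reads on mt-Cytb, 23.1% on mt-Nd1, 13.9% on mt-Rnr2, 11.3% on mt-Nd5 and 5.89% on mt-Rnr1. mt-Nd5 took 0.86% to 3.02% in the other groups.

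Ratios of levels within a library, which do not depend on its depth, showed the same. In levels per length, mt-Rnr2 was 1.34 to 1.51 times mt-Rnr1 in the 3 in vivo 4-cell libraries, 5.32 to 10.3 times in in vivo 2-cell embryos, 23.4 to 26.5 times in in vivo 8-cell embryos, 27.7 to 38.9 times in NTC 4-cell and 31.0 to 60.6 times in NTM 4-cell embryos. mt-Atp8 was 6.40 to 17.4 times mt-Atp6 in in vivo 4-cell embryos and 0.0251 to 0.0409 times in NTC 4-cell embryos. mt-Nd5 was 1.55 to 2.31 times mt-Nd2 in in vivo 4-cell embryos, 0.0452 to 0.119 times in in vivo 2-cell and 0.0646 to 0.0713 times in in vivo 8-cell embryos. In these 3 ratios the in vivo 4-cell libraries overlapped with none of the embryo groups set beside them.

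**Figure D3:**
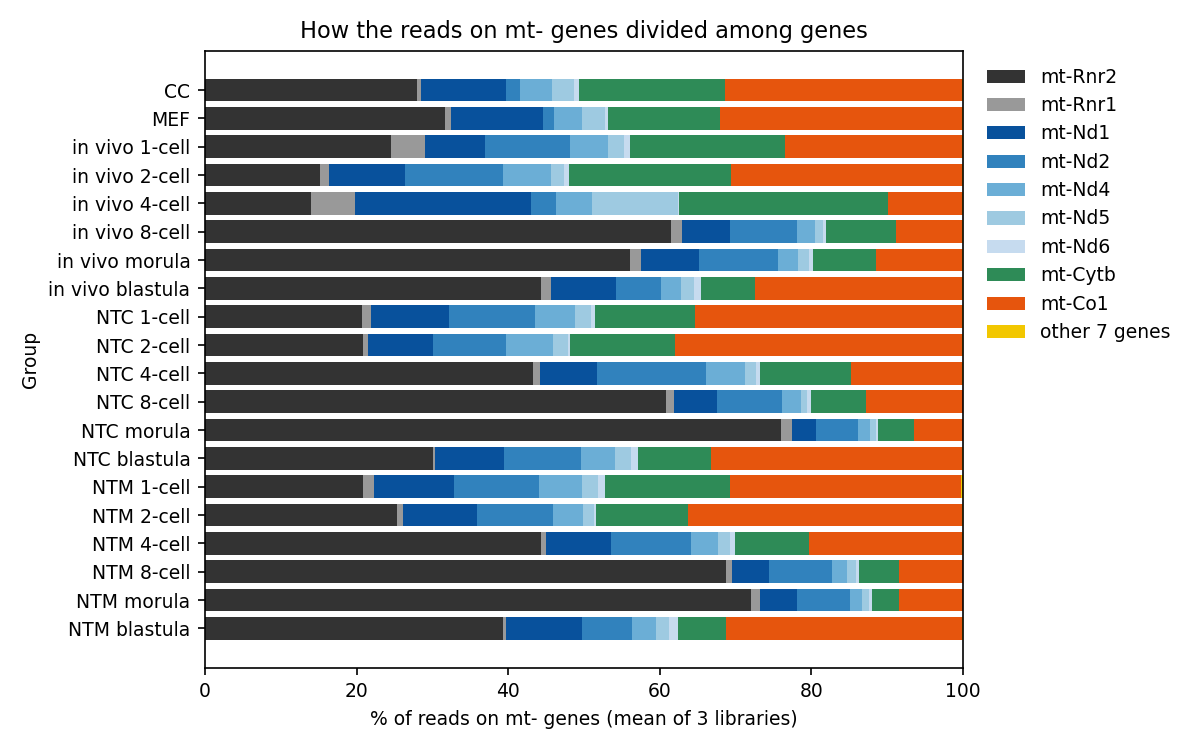
Percent of mitochondrial reads (horizontal axis) on 9 mitochondrial genes and on the other 7 together, stacked for the 20 groups (vertical axis) as means of 3 libraries. mt-Rnr2 takes over 50% in 8-cell embryos and morulae of all 3 origins, and the in vivo 4-cell bar differs from all others in its parts for mt-Cytb, mt-Nd1, mt-Nd5 and mt-Rnr1.

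Changes between consecutive stages were tested per gene by limma on log2(RPKM + 1), with a call at a Benjamini-Hochberg adjusted p under 0.05 over all genes tested and a log2 change of at least 1. A fold change on this scale is understated for genes with low values. Between 1-cell and 2-cell embryos 4 of 13 mitochondrial genes tested rose in NTC embryos (4.53% of all genes tested were called higher) and none fell. The count was 0 with no filter on low values and 1 to 7 with 1 library left out, with 1 or 2 without any single NTC 1-cell library and 1 without NTC 2-cell replicate 1. mt-Rnr2 had 8440, 5668 and 7414 RPKM in the NTC 1-cell and 20357, 14106 and 14001 in the NTC 2-cell libraries, which did not overlap (log2 1.17 ± 0.20 SE, adjusted p = 0.00693). mt-Co1, mt-Nd4 and mt-Nd5 rose by 1.29, 1.38 and 1.06 on the log2 scale.

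In NTM embryos 7 of 15 rose over this step (2.72% of all genes were called higher), a count that was 0 with no filter on low values and 3, 2 and 1 without NTM 1-cell replicate 1, 2 or 3. mt-Co1 had 8748, 5854 and 5870 RPKM in NTM 1-cell and 24367, 22692 and 54441 in NTM 2-cell embryos (log2 2.22 ± 0.32 SE, adjusted p = 0.00543). mt-Rnr2, mt-Nd1, mt-Nd2, mt-Cytb, mt-Nd4 and mt-Nd5 also rose, by 1.28 to 2.26. In vivo, 0 of 14 were called from the 1-cell to the 2-cell stage by limma (0% of all genes were called), and 3 had an unadjusted p under 0.05.

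Between 2-cell and 4-cell embryos 8 of 14 genes rose in NTC embryos (16.4% of all genes) and 6 of 15 in NTM embryos (12.1% of all genes), and no mitochondrial gene fell in either. mt-Rnr2 rose to 102752, 82991 and 85669 RPKM in NTC (log2 2.50 ± 0.16 SE, adjusted p = 7.1e-05) and, from 13567, 18950 and 36915, to 114335, 97671 and 84791 in NTM embryos (log2 2.21 ± 0.32 SE, adjusted p = 0.00213). mt-Nd6 rose from 836, 356 and 645 to 3624, 2805 and 3982 RPKM in NTC embryos, a mean 5.67 times as high. The other calls were mt-Cytb, mt-Nd2 and mt-Nd4 in both, mt-Nd1, mt-Rnr1 and mt-Nd3 in NTC and mt-Nd5 and mt-Nd6 in NTM embryos, between 1.10 and 2.57 on the log2 scale.

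In vivo embryos changed in both directions over this step, with 4 of 15 genes higher (31.4% of all genes) and 5 lower (20.8% of all genes). The 4 that rose were mt-Atp8, from 5.79, 18.0 and 10.4 to 208, 212 and 168 RPKM (log2 4.11 ± 0.44 SE, adjusted p = 2.71e-04), mt-Nd5 from 939, 1042 and 825 to 6233, 3666 and 3576, mt-Rnr1 from 1078, 2094 and 462 to 5626, 4050 and 3567, and mt-Nd4l. mt-Nd4l, a small complex I subunit, was at 0 in 51 of the 60 libraries and had 4.35, 4.75 and 3.71 RPKM in in vivo 4-cell embryos, at least 5.87-fold above a floor of 3 reads per library in in vivo 2-cell embryos. mt-Nd4l passed the filter of a mean of 0.5 RPKM only through the in vivo 4-cell libraries. Its calls here and in every other comparison with those libraries are therefore only a description. The 5 that fell were mt-Nd2, mt-Atp6, mt-Co1, mt-Co2 and mt-Nd6.

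mt-Nd2 had 7862, 13597 and 18262 RPKM in in vivo 2-cell embryos, 2696, 2360 and 1886 in 4-cell and 30811, 28501 and 36778 in 8-cell embryos. It was 5.72-fold lower at the 4-cell stage (log2 -2.45 ± 0.32 SE, adjusted p = 6.78e-04) and 13.8-fold higher again at the 8-cell stage (log2 3.80 ± 0.14 SE, adjusted p = 9.91e-06). mt-Nd6 had 481, 1726 and 1591, then 133, 57.9 and 72.9, then 4475, 2494 and 2923 RPKM. Both genes had no overlap between the 4-cell and either neighbouring stage.

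From the 4-cell to the 8-cell stage in vivo 7 genes rose (4.40% of all genes were called higher) and 3 fell (39.3% were called lower). With median-ratio scaling, and with scaling to nuclear reads, 10 rose and 2 fell. mt-Rnr2 rose from 7564, 5797 and 5372 RPKM to 120887, 152236 and 163299, 23.3-fold (log2 4.55 ± 0.15 SE, adjusted p = 3.9e-06). mt-Co1 rose from 4394, 5052 and 3801 to 17629, 16378 and 30673. mt-Atp6, mt-Co2, mt-Nd2, mt-Nd4 and mt-Nd6 rose and mt-Atp8, mt-Nd5 and mt-Nd4l fell, with mt-Nd4l again past the filter only through the 4-cell libraries. Of these 10, 8 were called the opposite way from the 2-cell to the 4-cell stage, and the log2 change of the others over that step was -0.42 for mt-Rnr2 and -0.95 for mt-Nd4. Both steps used the same 4-cell libraries.

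With the 4-cell libraries left out, a comparison chosen after seeing the data, genes rose from the 2-cell to the 8-cell stage in all 3 origins. In vivo 6 of 14 genes rose (13.8% of all genes), in NTC embryos 5 of 14 (14.1% of all genes) and in NTM embryos 4 of 15 (17.9% of all genes), and none fell. mt-Rnr2 rose by 4.13 ± 0.35 (SE) in vivo, by 3.16 ± 0.24 for NTC and by 3.05 ± 0.34 for NTM embryos on the log2 scale. mt-Nd2 and mt-Nd6 also rose in all 3, by 1.35 and 1.54 in vivo, by 1.40 and 2.45 with CC nuclei and by 1.31 and 1.61 with MEF nuclei. The change differed from the in vivo change for 0 of 14 genes in NTC (0.219% of all genes were called, and 1 mitochondrial gene had an unadjusted p under 0.05) and for 0 of 14 in NTM embryos (0.577% of all genes, 0 with an unadjusted p under 0.05) in the limma interaction test.

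**Figure D4:**
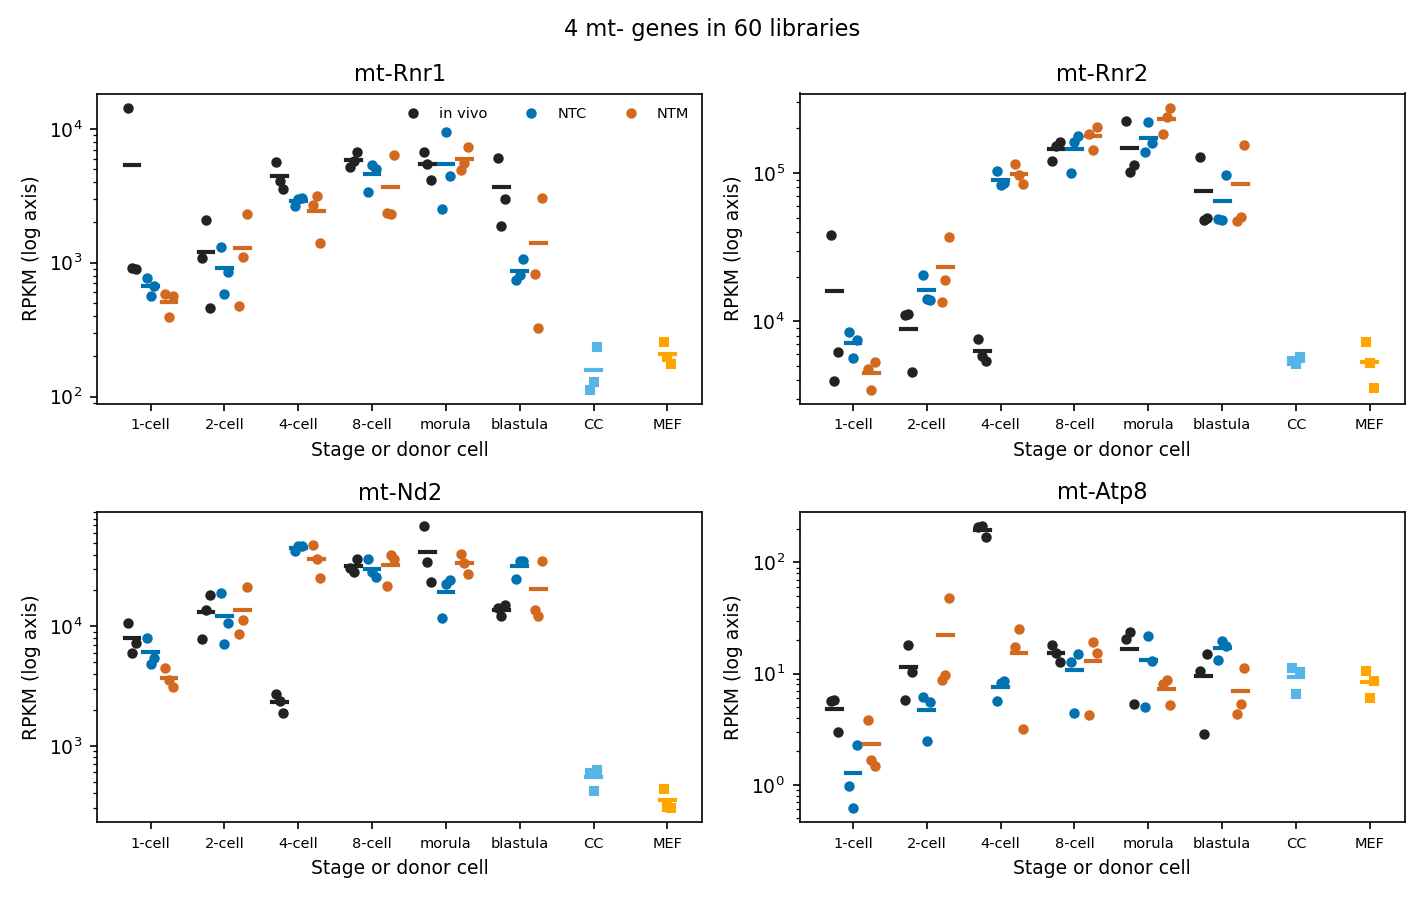
RPKM on a log axis (vertical) of mt-Rnr1, mt-Rnr2, mt-Nd2 and mt-Atp8 in every library by stage (horizontal), for in vivo, NTC and NTM embryos and both donor cells, with points for the 3 libraries of each group and short lines at their mean. The in vivo 4-cell libraries lie above those of NT embryos for mt-Atp8, at 168 to 212 RPKM, and below them for mt-Rnr2, at 5372 to 7564, and mt-Nd2, at 1886 to 2696.

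No mitochondrial gene was called from the 4-cell to the 8-cell stage in NTC embryos (0 of 14, with 5 at an unadjusted p under 0.05 and 0.0564% of all genes called by limma) or in NTM embryos (0 of 14, with 6 at an unadjusted p under 0.05 and 0.363% of all genes called). No gene was called from the 8-cell stage to the morula by limma in vivo (0.0116% of all genes, with 0 mitochondrial genes at an unadjusted p under 0.05), in NTC (0% of all genes, with 6 mitochondrial genes at an unadjusted p under 0.05) or in NTM embryos (0% of all genes, with 1).

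From morula to blastula the ribosomal RNAs fell in both kinds of NT embryo. In NTC embryos 6 genes, all of them messenger RNAs, rose (4.54% of all genes) and 2 fell (2.62% of all genes). With no filter on low values none of these was called, and with 1 library left out 3 to 7 genes were called. mt-Co1 rose from 12061, 14515 and 17493 to 82304, 58512 and 69830 RPKM (log2 2.26 ± 0.21 SE, adjusted p = 0.00343). mt-Rnr2 fell from 139466, 220535 and 159429 to 48637, 48410 and 97642 (log2 -1.47 ± 0.29 SE, adjusted p = 0.021). mt-Rnr1 fell by 2.46 and mt-Nd1, mt-Nd4, mt-Nd5, mt-Nd6 and mt-Co3 rose by 1.16 to 1.93.

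In NTM embryos mt-Co1 rose by 1.11 ± 0.26 (SE) on the log2 scale (3.73% of all genes were called higher). mt-Rnr2 fell from 184346, 239489 and 276711 to 47298, 50209 and 154501 RPKM, and mt-Rnr1 fell by 2.64 ± 0.61 (0.499% of all genes were called lower). Without any 1 of 5 of these 6 libraries, all but the third NTM blastula, none of the 3 NTM calls was kept, and none was made under median-ratio scaling, scaling to nuclear reads or no filter. The median log2 change of the 14 genes tested was 0.01. In vivo 0 of 14 were called by limma over this step (0.801% of all genes, with 4 mitochondrial genes at an unadjusted p under 0.05).

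NT embryos were compared with in vivo embryos of the same stage, and both NT groups were set against the same 3 in vivo libraries, so their differences share those libraries. At the 4-cell stage 8 of 15 genes were higher in NTC (7.40% of all genes) and 3 lower (20.4% of all genes), and in NTM embryos 7 were higher (3.33% of all genes) and 2 lower (17.8% of all genes). The median log2 difference of the 15 was 1.12 in NTC and 0.90 in NTM embryos, while the median of all genes was -0.39 and -0.69.

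Of the ribosomal RNAs mt-Rnr2, with 7564, 5797 and 5372 RPKM in vivo, was 14.5-fold higher in NTC (log2 3.87 ± 0.15 SE, adjusted p = 3.79e-06) and 15.8-fold higher in NTM 4-cell embryos (log2 3.99 ± 0.16 SE, adjusted p = 1.41e-05), without overlap. mt-Rnr1 had 5626, 4050 and 3567 RPKM in vivo, 2644, 2996 and 3031 for NTC and 2714, 3150 and 1400 in NTM embryos, and was not called (log2 -0.59 ± 0.19 and -0.92 ± 0.32).

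Of the complex I subunits, mt-Nd2 had 42442, 47075 and 46893 RPKM in NTC and 47731, 36770 and 25363 in NTM 4-cell embryos, 19.7-fold and 15.8-fold above in vivo. mt-Nd6 had 5259, 3748 and 3286 RPKM in NTM embryos and was 39.5-fold (NTC) and 46.7-fold (NTM) above in vivo (log2 5.36 ± 0.31 and 5.59 ± 0.35 SE, adjusted p = 1.05e-05 and 1.57e-04). mt-Nd4 was 5.11-fold and 3.65-fold higher. mt-Nd1, between mt-Rnr2 and mt-Nd2 on the chromosome, was not called, with 24272, 15739 and 12674 RPKM in vivo and 23896, 28675 and 26428 in NTC embryos, and these values overlapped. mt-Nd5 was not called either (log2 -0.85 ± 0.30 and -0.49 ± 0.23). mt-Nd3 was lower in NTC embryos (log2 -1.50 ± 0.47 SE, adjusted p = 0.0444), and mt-Nd4l was at least 4.03-fold lower in NTC and 4.13-fold lower in NTM embryos, against the floor of 3 reads per library. mt-Nd4l is counted among the genes called lower in both, though it passed the filter only through the in vivo libraries.

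mt-Cytb, the subunit of complex III encoded here, was 2.03-fold higher in NTC embryos (log2 1.03 ± 0.17 SE, adjusted p = 0.00215) and not called in NTM embryos, where the log2 difference was 0.81 ± 0.17. In complex IV, mt-Co1 had 26185, 39569 and 29203 RPKM for NTC and 45691, 47187 and 44141 in NTM embryos, 7.17-fold and 10.3-fold above in vivo. mt-Co2 was 14.1-fold and 30.8-fold higher, with 5.78, 2.45 and 2.15 RPKM in vivo and no less than 43.9 in any NT 4-cell library. mt-Co3 was not called, and its values were 40.8, 0 and 49.4 RPKM in the NTC 4-cell libraries and 0, 43.5 and 29.3 in the NTM 4-cell libraries. The genes of complex V split. mt-Atp6 was 11.1-fold and 12.6-fold higher in NTC and NTM embryos, and mt-Atp8, which overlaps it, was 26.1-fold and 12.9-fold lower, with 208, 212 and 168 RPKM in vivo, 5.65, 8.28 and 8.61 for NTC and 17.5, 25.1 and 3.19 in NTM embryos.

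**Figure D5:**
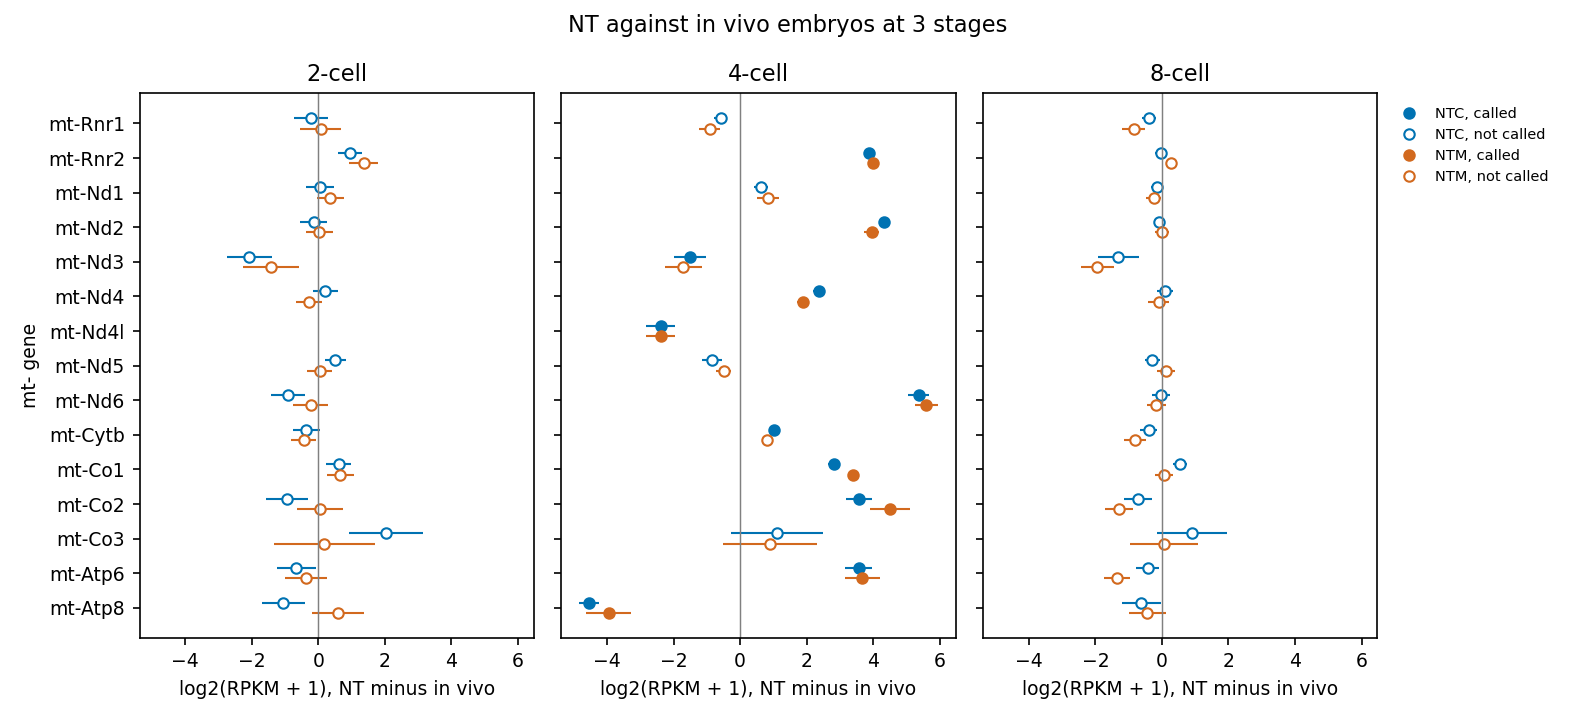
Log2 difference in RPKM + 1 between NT and in vivo embryos (horizontal axis, bars are 1 SE) for 15 mitochondrial genes (vertical axis) at the 2-cell, 4-cell and 8-cell stages, with NTC and NTM set against the same in vivo libraries and filled points for called genes. The largest differences are at the 4-cell stage, from -4.54 for mt-Atp8 in NTC to 5.59 for mt-Nd6 in NTM embryos.

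Whether the change of a gene between stages differed from its in vivo change was tested by the limma interaction term. Over the 2-cell to 4-cell step 9 genes differed in NTC (7 upward and 2 downward, with 14.3% of all genes called in either direction) and 9 in NTM embryos (again 7 and 2, with 9.91% of all genes). Over the 4-cell to 8-cell step 10 differed in NTC (2 upward and 8 downward, with 19.5% of all genes) and 10 in NTM embryos (again 2 and 8, with 18.7% of all genes). Every one of these tests used the in vivo 4-cell libraries, and the test from the 2-cell to the 8-cell stage without them called 0 mitochondrial genes, as given above. Each of these counts includes mt-Nd4l, which passed the filter only through the in vivo 4-cell libraries.

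At other stages NT and in vivo embryos differed in few of these genes. At the 1-cell stage mt-Cytb was 2.68-fold lower in NTM embryos (0.912% of all genes were called lower), with 18341, 10296 and 11315 RPKM in vivo and 6411, 4312 and 4189 in NTM embryos, without overlap (log2 -1.40 ± 0.27 SE, adjusted p = 0.0491), and this call was lost without in vivo library 2, in vivo library 3 or any 1 NTM library. NTC 1-cell embryos held 0 calls of 14 by limma (1.16% of all genes, with 3 mitochondrial genes at an unadjusted p under 0.05). In 2-cell embryos 0 of 14 were called in NTC (0.152% of all genes, with 2 at an unadjusted p under 0.05) and 0 of 15 in NTM embryos (0.141% of all genes, with 1). At the 8-cell stage 0 of 14 were called in each (1.46% and 2.02% of all genes, with 1 and 5 at an unadjusted p under 0.05). In morulae 0 were called in NTC (0.0321% of all genes, with 9 mitochondrial genes at an unadjusted p under 0.05) and 0 in NTM embryos (0.168% of all genes, with 2).

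In NTC blastulae 2 genes were higher (8.81% of all genes) and 1 lower (0.657% of all genes) than in vivo. mt-Nd4 had 4347, 4160 and 5113 RPKM in vivo and 9899, 10155 and 12640 in NTC blastulae (log2 1.26 ± 0.12 SE, adjusted p = 0.0228), mt-Nd2 was 2.3-fold higher, and mt-Rnr1 had 6069, 1887 and 2986 RPKM in vivo and 748, 804 and 1065 in NTC blastulae (log2 -1.91 ± 0.40 SE, adjusted p = 0.0356). None of the 3 remained called without the second NTC library. Median-ratio scaling left 0 higher and 1 lower, and scaling to nuclear reads 3 higher and 0 lower. In NTM blastulae 0 were called by limma (0.746% of all genes, with 2 mitochondrial genes at an unadjusted p under 0.05).

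NTC and NTM embryos, which differ in the donor nucleus, were compared at each stage. By limma 0 mitochondrial genes were called at the 1-cell stage (19.8% of all genes, with 8 mitochondrial genes at an unadjusted p under 0.05), and 0 in 2-cell embryos (0% of all genes), in 4-cell (0%) and in 8-cell embryos (0.0507%), in morulae (0%) and in blastulae (0%), with 1 to 5 below 0.05 before adjustment. The donor cells themselves, MEFs against CCs, held 0 calls of 15 by limma (6.29% of all genes, 2 at an unadjusted p under 0.05).

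NT embryos at the 1-cell stage, which hold the cytoplasm of the oocyte, were compared with the cells that gave their nuclei. In NTC embryos against CCs 6 genes were higher (29.3% of all genes) and 3 lower (20.8% of all genes). mt-Nd2 had 596, 416 and 631 RPKM in CCs and 8038, 4837 and 5383 in NTC 1-cell embryos (log2 3.46 ± 0.25 SE, adjusted p = 1.37e-04). In NTM embryos against MEFs 7 were higher (25.2% of all genes) and 3 lower (29.9% of all genes), and mt-Nd2 was 10.6-fold higher. mt-Co2, mt-Co3, mt-Atp6, mt-Rnr1 and mt-Nd4 were higher in both and mt-Atp8, mt-Nd3 and mt-Tp lower in both, and mt-Nd6 was also higher in NTM embryos. mt-Tp had 5.59, 4.25 and 9.93 RPKM in CCs and 4.25, 7.65 and 9.05 in MEFs, and was at 0 in 51 of the 60 libraries. Against a floor of 3 reads per library, it was at least 1.49-fold lower in NTC and 2.21-fold lower in NTM embryos. This floor reached 4.43 RPKM in NTC 1-cell libraries, above the lowest CC value. mt-Tp passed the filter on low values only through the deeper donor cell libraries, so its calls are only a description.

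A list of 45 nuclear genes whose proteins copy, transcribe, process or regulate mitochondrial DNA and its RNA was followed beside them. At the 4-cell stage 4 of 41 tested were higher and 10 lower in NTC than in vivo and 5 of 42 higher and 8 lower in NTM embryos. The share lower was 24.4% and 19.0%, near the 20.4% and 17.8% of all genes called lower. The median log2 difference of the list was -0.59 in NTC and -0.95 in NTM embryos, beside -0.39 and -0.69 for all genes. At other stages the counts were 0, except 2 higher of 38 in NTC blastulae and 1 higher of 36 in NTM 8-cell embryos. In vivo 20 of 42 rose and 2 fell from the 2-cell to the 4-cell stage and 5 of 41 rose and 21 fell from the 4-cell to the 8-cell stage, which is 47.6% higher and then 51.2% lower, beside 31.4% of all genes called higher and then 39.3% called lower. By role, of the transcription genes 1 was higher and 3 lower of 9 in NTC and 1 and 2 of 10 in NTM 4-cell embryos, of 16 RNA processing genes 2 were higher and 2 lower in each, and of 11 replication genes 0 were higher in each, with 4 and 2 lower. Of 5 regulators of nuclear genes for mitochondria 1 was higher and 1 lower in NTC and 2 and 2 in NTM embryos.

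Tfam, which packs mitochondrial DNA and starts its transcription, had a mean of 11.5 RPKM (8.28 to 15.9) in in vivo 4-cell embryos, 92.6 (68.9 to 119) in NTC and 89.3 (63.9 to 102) in NTM embryos (log2 2.92 ± 0.35 and 2.87 ± 0.43 SE). Tfb2m, its partner at the promoter, was lower, at 72.3 RPKM in vivo, 28.6 with CC nuclei (NTC) and 20.1 with MEF nuclei (NTM). Polrmt, the mitochondrial RNA polymerase, had 18.5, 8.14 and 4.55 RPKM and was not called, nor were Lrpprc, a stabiliser of mitochondrial messages, at 11.1, 7.78 and 11.4, and Twnk, the helicase of mitochondrial DNA, at 8.89, 24.9 and 17.1. Polg, the catalytic subunit of the DNA polymerase, was under the filter on low values. Slirp, the binding partner of Lrpprc, had 11.9 RPKM (9.82 to 13.2) in in vivo 4-cell embryos and at most 0.71 in any library of the other 19 groups. It was lower in both NT groups (log2 -3.68 and -3.65). In both comparisons Slirp passed the filter on low values only through the in vivo 4-cell libraries, and these log2 values depend on the pseudocount. Its calls are therefore only a description, and the counts of listed genes lower at the 4-cell stage include it. Phb2, a prohibitin of the inner membrane, Lig3, a DNA ligase, Mterf4 and Fastkd5, both linked to mitochondrial RNA, were also lower in both NT groups, by 2.18 to 2.71 on the log2 scale.

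Other features moved with the 4-cell difference. Nuclear genes with exons of under 500 bases in all had a median log2 difference of -0.97 (NTC) and -1.05 (NTM) to in vivo 4-cell embryos, and those of 4000 bases or more -0.17 and -0.47. The number of nuclear genes above 0 was 13561 to 13917 in the in vivo 4-cell libraries, without overlap with the 8983 to 11916 in NT 4-cell libraries. Markers of the 2-cell stage summed to 3.39 to 20.96 RPKM in vivo, 31.7 to 191 in NTC and 2.72 to 74.0 in NTM 4-cell embryos, so that the sums of in vivo and NTC embryos did not overlap. The 6 markers did not all go this way. Zscan4c and Zscan4d were at 0 in all NTC and NTM 4-cell libraries, while neither was at 0 throughout the in vivo 4-cell libraries. The nuclear copies Gm10222, of mt-Nd4l, and Gm28438, of mt-Nd3, had 22.7 and 13.2 RPKM in in vivo 4-cell embryos and at most 1.63 and 2.11 as a mean of any other group. Nuclear copies did not all go this way. Among 4-cell group means, Gm10925 and Gm28437 were also highest in vivo, while Gm29216, Gm28661, Gm10221 and Gm13340 were lowest in vivo. The rest were mixed or near 0. Summed levels of cumulus and fibroblast markers stayed at or below 11.1 RPKM in these libraries as in all embryo libraries. The part of gene length, of the number of genes detected, of 2-cell markers and of reads shared with nuclear copies in the makeup of these 3 libraries was not tested.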

How the data were processed

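RNA of single embryos and donor cells was reverse transcribed, tailed, amplified and sequenced. The authors deposited 1 table of RPKM values for 60 libraries. Per the labels' processing notes, reads were mapped with Bowtie 0.12.2 and the mm8 build is named, while the study's methods name TopHat, Bowtie2, HTSeq and FPKM, so the build of the table is not settled. GENCODE M21 (GRCm38) served for symbols, lengths, positions and sequences. Of 27238 genes 27056 matched a symbol.

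RPKM values are whole multiples of the value of 1 read, and reads were recovered from these steps (tolerance 0.02 of a read): all 854 member values above 0 came out whole, 20693 genes at the GENCODE length, 6010 at another and 142 at none, and 393 genes were at 0 throughout. Shares are recovered reads over all reads on genes, and intervals of counting error were not given because PCR reads without identifiers are not independent molecules. Values are relative to the library's total, so a large mitochondrial share lowers all other values.

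Tests used limma 3.58.1 (R 4.3.3) on log2(RPKM + 1) with a trended prior, for genes whose mean was 0.5 RPKM or more in the 6 libraries compared, or 12 in interaction tests, and Benjamini-Hochberg adjustment over all genes tested. No count test was run. The code was tested on simulated data. In all, 36 pairwise comparisons and 4 interaction tests were made, and 5 comparisons of 2-cell with 8-cell embryos were added after seeing the data. Stretches of 150 bases were searched in annotated transcripts, not in the genome. Groups came from the labels. The labels speak of embryos from at least 3 independent experiments, and which libraries shared one is not given in the sources used here. The members and the gene lists were chosen with earlier results of these data known. Named genes are all members, the nuclear genes Polrmt, Tfam, Tfb2m, Lrpprc, Polg and Twnk, up to 6 of the nuclear list called the same way in both NT groups at the 4-cell stage with the largest mean change, and nuclear copies. Alternatives were a pseudocount of 0.1, no filter, median-ratio scaling, scaling to nuclear reads, 1 fit over all 20 groups, the replicate number as a block, no fold threshold and leaving out each library. Other analyses used Python 3.11.15, numpy 2.4.6, pandas 2.3.3 and matplotlib 3.10.9.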

Additional observations from a re-analysis of the deposited data

Results flagged for a closer look

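The results below are those in which NT embryos changed between stages by another amount than in vivo embryos, by the limma interaction test (12 libraries, adjusted over all genes). Values are log2 changes in NT minus log2 changes in vivo. All rest on the 3 in vivo 4-cell libraries, and both NT groups were set against the same in vivo libraries.

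From the 2-cell to the 4-cell stage, the difference in NTC embryos was 6.29 for mt-Nd6, 4.51 for mt-Co2, 4.45 for mt-Nd2, 4.22 for mt-Atp6, 2.92 for mt-Rnr2, 2.22 for mt-Co1, 2.16 for mt-Nd4, -2.39 for mt-Nd4l and -3.49 for mt-Atp8. In NTM embryos it was 5.82 for mt-Nd6, 4.45 for mt-Co2, 4.06 for mt-Atp6, 3.92 for mt-Nd2, 2.72 for mt-Co1, 2.63 for mt-Rnr2, 2.18 for mt-Nd4, -2.39 for mt-Nd4l and -4.55 for mt-Atp8.

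From the 4-cell to the 8-cell stage, the difference in NTC embryos was -5.38 for mt-Nd6, -4.40 for mt-Nd2, -4.30 for mt-Co2, -3.99 for mt-Atp6, -3.89 for mt-Rnr2, -2.28 for mt-Nd4, -2.27 for mt-Co1, -1.43 for mt-Cytb, 2.46 for mt-Nd4l and 3.93 for mt-Atp8. In NTM embryos it was -5.81 for mt-Co2, -5.75 for mt-Nd6, -5.03 for mt-Atp6, -3.96 for mt-Nd2, -3.71 for mt-Rnr2, -3.31 for mt-Co1, -1.99 for mt-Nd4, -1.62 for mt-Cytb, 2.47 for mt-Nd4l and 3.52 for mt-Atp8. mt-Nd4l was at 0 in 51 of the 60 libraries, so its fitted values depend on the pseudocount and are no bounds. It passed the filter only through the in vivo 4-cell libraries.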

How the results depend on the processing

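Counts below are mitochondrial genes called, and the cause of each change was not tested. Comparing the 2-cell with the 8-cell stage instead of the 4-cell stage gave 5 in place of 8 in NTC embryos and 0 in place of 9 in each of the NTC and NTM interaction tests, and in vivo 6 higher and 0 lower in place of 4 higher and 5 lower. Under median-ratio scaling the count was 5 in place of 8 for NTC 2-cell to 4-cell, 3 in place of 6 for NTM 2-cell to 4-cell, 0 in place of 3 for NTM morula to blastula, 0 in place of 1 for NTM against in vivo 1-cell, 1 in place of 0 for NTM against in vivo 8-cell, 1 in place of 3 for NTC against in vivo blastula and 2 in place of 0 for NTM against NTC 1-cell embryos. With no filter on low values it was 5 in place of 9 for in vivo 2-cell to 4-cell, 0 in place of 4 for NTC 1-cell to 2-cell, 2 in place of 8 for NTC 2-cell to 4-cell, 0 in place of 8 for NTC morula to blastula, 0 in place of 7, 6 and 3 for the NTM steps from 1-cell to 2-cell, 2-cell to 4-cell and morula to blastula, 0 in place of 1 for NTM against in vivo 1-cell, 1 in place of 3 for NTC against in vivo blastula and 5 in place of 9 for the NTM interaction over the 2-cell to 4-cell step. With no fold threshold it was 5 in place of 3 for NTC against in vivo blastula, 5 in place of 0 for NTM against NTC 1-cell and 1 in place of 0 for MEF against CC. Scaling to nuclear reads gave 0 in place of 3 for NTM morula to blastula and 0 in place of 1 for NTM against in vivo 1-cell. A single fit over all groups gave 2 in place of 0 for in vivo morula to blastula, 1 in place of 0 for NTM 4-cell to 8-cell, NTC against in vivo 2-cell, NTM against in vivo 8-cell and NTM against in vivo morula, 2 in place of 0 for NTC against in vivo morula and 5 in place of 3 for NTC against in vivo blastula. A pseudocount of 0.1 gave 0 in place of 1 for NTM against in vivo 1-cell and 1 in place of 0 for NTM against NTC 1-cell.

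Same-numbered libraries did not deviate together. In 0 of 36 comparisons did every pair correlate above 0.1, and the numbers only name libraries. The fit with the replicate block gave 2 in place of 0 for in vivo morula to blastula and 1 in place of 0 for NTM 4-cell to 8-cell, and changed no other count by over 1.5 times.

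Leaving out 1 library gave 9 to 11 calls for NTC and 9 to 10 for NTM against in vivo at the 4-cell stage, 9 to 10 for in vivo 2-cell to 4-cell and 9 to 11 for in vivo 4-cell to 8-cell. For NTC 1-cell to 2-cell it gave 1 to 7 (2, 1 and 1 without NTC 1-cell replicate 1, 2 or 3, and 1 and 7 without 2-cell replicate 1 or 2), and for NTC 2-cell to 4-cell 4 to 9 (5 and 5 without 2-cell replicate 2 or 3, and 4, 5 and 4 without 4-cell replicate 1, 2 or 3). For NTC morula to blastula it gave 3 to 7 (3 and 3 without blastula replicate 1 or 2, 5 without morula replicate 3), for NTM 1-cell to 2-cell 1 to 7 (3, 2 and 1 without 1-cell replicate 1, 2 or 3), for NTM 2-cell to 4-cell 3 to 7 (3 without 2-cell replicate 1 or 2, or 4-cell replicate 1 or 2) and for NTM morula to blastula 0 to 3 (0 without blastula replicate 1 or 2, or any morula). Against in vivo, it gave 0 to 1 for NTC 1-cell (1 without in vivo replicate 1), 0 to 2 for NTM 1-cell (2 without in vivo replicate 1, 0 without any other library), 0 to 1 for NTM 8-cell (1 without NTM replicate 3), 0 to 3 for NTC blastula (0 without NTC replicate 2) and 0 to 1 for NTM blastula (1 without NTM replicate 3). NTM against NTC 1-cell gave 0 to 1 (1 without any library but NTC replicate 2). With 1 replicate number left out of all groups, the interaction over the 2-cell to 4-cell step gave 3 to 10 for NTC (3 without replicate 2 or 3) and 0 to 7 for NTM (2 without replicate 1, 0 without replicate 2).

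Of single genes, mt-Cytb in NTM against in vivo 1-cell, mt-Cytb and mt-Nd3 in NTC against in vivo 4-cell, and mt-Nd2, mt-Rnr1 and mt-Nd4 in NTC against in vivo blastula embryos lost the call under at least 1 alternative. As a share of summed RPKM, the mitochondrial mean was 6.41% in CC, 5.76% in MEF, 17.2%, 21.9%, 13.2%, 55.6% and 41.3% in in vivo embryos of all stages but the morula, in order, 13.0%, 24.7%, 53.4%, 56.8%, 51.8% and 50.3% in the 6 NTC stages and 8.40%, 25.2%, 54.5%, 58.9% and 67.6% in NTM 1-cell to morula embryos. With protein-coding mt- genes only, the share was 2.21% in CC, 1.76% in MEF, 18.5% and 15.2% in in vivo 8-cell and blastula, 4.35%, 21.7%, 18.2%, 11.4% and 25.6% in NTC embryos of all stages but the 2-cell stage, in order, and 2.71%, 23.1%, 17.3% and 21.4% in NTM 1-cell, 4-cell, 8-cell and morula embryos. Without its highest library the mean share of reads was 30.2% in place of 41.5% in in vivo morulae and 5.49% in place of 8.13% in in vivo 1-cell embryos.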

Other observations

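Values of mt-Co3 were uneven within groups. In 6 of 60 libraries it was under 1 RPKM, and 3 of these were listed at 0, while other libraries of the same group held up to 105 RPKM. In NTM blastulae the 3 values were 0.213, 25.2 and 105, and in in vivo 2-cell embryos 14.2, 52.1 and 0.154. mt-Co3 is copied nearly whole by the nuclear gene Gm28437, whose group means reached 2.31 RPKM. The part of this copy in the uneven values was not tested.

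The first in vivo 1-cell library differed from the other two in its ribosomal RNA. It had 14419 RPKM of mt-Rnr1 and 37947 of mt-Rnr2, against 918 and 890 and 3938 and 6183 in the others. Ribosomal RNA took 55.0% of its mitochondrial reads and 15.1% and 17.0% in the others.

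Of other nuclear copies, Gm29216, a copy of part of mt-Co1, had its highest group mean in NTM blastulae at 19.0 RPKM, which was 2.07 without its highest library of 53.0. Gm28661, the copy of mt-Co2, had its highest in in vivo blastulae at 15.5 RPKM, which was 7.08 without its highest library of 32.2, while Gm13340, Gm13339 and Gm13341 stayed at or below 0.64.

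Among 10557 genes outside the mitochondrial genome, those whose level followed the summed mitochondrial RPKM most closely over the 54 embryo libraries, by Pearson's r of log2 values, were Rps2-ps6 (0.871), Rps6-ps4 (0.870), Gm12366 (0.868), Ftl1-ps1 (0.868) and Gm12693 (0.866). The libraries share stages, and this is a description across libraries.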
